A study of Mus musculus with 8 samples.

Results

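The 10 genes described here encode secreted vessel growth factors and their receptors: the ligands Vegfa, Fgf1, Angpt1, Angpt2 and Apln, and the receptors Kdr, Flt1, Tek, Tie1 and Aplnr. They were taken by gene symbol from a deposited expression table of the mouse left ventricle, with the probe set of the highest mean where a gene had more than 1. All 10 were measured, among 22180 genes with a probe set of a single symbol, and all 10 were among the 13872 genes tested. Angpt1 had 2 probe sets and each of the others had 1.

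The ventricles came from C57BL/6 females aged 3 to 4 months in 4 reproductive states, with 2 arrays per state and no further treatment or genetic change named in the labels. The groups were non-pregnant mice in diestrus, a phase of the estrous cycle (replicates 2 and 3), mice at day 12 of pregnancy (replicates 2 and 3), mice at day 19 of pregnancy (replicates 1 and 2), and mice at day 1.5 after birth (replicates 2 and 4). The protocol text gives the late pregnancy group as day 18/19. Diestrus served as the reference of the study, whose title names transcription in the left ventricle through pregnancy and the early post-partum period as its subject. The labels do not say which animals the samples came from, so every p-value measures only the spread between these samples, which may be technical.

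VEGF-A signals to endothelial cells through the receptor KDR (VEGFR2), while FLT1 (VEGFR1) binds the same ligand tightly and acts largely as a decoy. Angiopoietin 1 activates the endothelial receptor TIE2, the product of Tek, and stabilises vessels. Angiopoietin 2, released by activated endothelium, mostly opposes it, and TIE1 is a related receptor without a classical ligand of its own. Apelin is a peptide made by endothelial tip cells, among others, that acts on the receptor APLNR, and in the heart the pair is known for effects on vessel calibre and contraction.

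For Kdr, Flt1, Tek and Tie1, the 4 receptors that endothelial cells typically share, the 250 bases before the RefSeq start (GRCm38.p6) are shown with each GGAA or its reverse complement TTCC in capitals, the core bound by ETS factors, a family that includes endothelial regulators. They lie at chr5:75978456-75978705 on the minus strand for Kdr, chr5:147726012-147726261 on the minus strand for Flt1, chr4:94739039-94739288 on the plus strand for Tek and chr4:118489850-118490099 on the minus strand for Tie1, each written 5′ to 3′ along the gene's strand.
Kdr: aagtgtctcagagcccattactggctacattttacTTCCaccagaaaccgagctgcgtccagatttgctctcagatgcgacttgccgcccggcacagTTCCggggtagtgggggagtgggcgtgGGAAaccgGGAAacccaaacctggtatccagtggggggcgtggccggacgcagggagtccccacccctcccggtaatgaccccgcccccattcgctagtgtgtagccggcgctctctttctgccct
Flt1: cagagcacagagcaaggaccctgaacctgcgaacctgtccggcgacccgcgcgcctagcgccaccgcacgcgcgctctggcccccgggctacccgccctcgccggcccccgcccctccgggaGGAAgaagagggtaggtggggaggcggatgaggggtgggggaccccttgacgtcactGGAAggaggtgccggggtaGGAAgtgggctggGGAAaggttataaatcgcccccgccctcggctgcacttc
Tek: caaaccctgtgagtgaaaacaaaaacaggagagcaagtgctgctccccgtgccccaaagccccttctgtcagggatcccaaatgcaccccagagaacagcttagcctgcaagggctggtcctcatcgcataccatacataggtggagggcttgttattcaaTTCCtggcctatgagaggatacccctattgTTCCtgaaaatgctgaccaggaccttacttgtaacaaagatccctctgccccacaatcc
Tie1: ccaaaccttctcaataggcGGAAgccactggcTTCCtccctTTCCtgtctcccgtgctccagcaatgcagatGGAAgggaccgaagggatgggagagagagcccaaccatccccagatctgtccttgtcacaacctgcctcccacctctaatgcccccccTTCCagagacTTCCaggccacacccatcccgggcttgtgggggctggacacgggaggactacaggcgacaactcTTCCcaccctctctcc

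The GGAA core, counted on both strands, occurred 4 times in the Kdr window, 4 times in that of Flt1, 2 times in that of Tek and 7 times in that of Tie1. Over all 32536 windows of this length 93.4% held at least 1 and the median was 3, so its presence does not set these genes apart. The core GCGTG, searched on both strands as a motif of hypoxia response elements, occurred 2 times in the Kdr window and 1 time in that of Flt1, against 28.3% of all windows with at least 1. The other core of those elements, ACGTG, had 0 matches in these 4 windows, against 16.7% of all windows with a match. These are matches of letters and were not measured as binding. RefSeq windows were also matched for Vegfa and Apln. The Vegfa window at chr17:46025164-46025413 held 1 ACGTG and 1 GCGTG match. The Vegfa window at chr17:46032378-46032627 and the Apln window held 0 of either. The table held 6 of the 10 genes, and Angpt1, Angpt2, Aplnr and Fgf1 are named only.

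Both day 19 arrays stood apart from the other arrays, in different ways. Over all probe sets day 19 replicate 2 correlated with the other arrays at 0.969 to 0.977, against 0.980 to 0.992 among the other 7, and replicate pairs differed with an SD over the genes tested of 0.555 at day 19 and 0.239 to 0.328 in the other states. The mean of 6 atrial markers was 2.51 log2 units above the diestrus mean on day 19 replicate 1, where the atrial light chain Myl7 stood at 11.76, and that of 6 mesothelial markers was 1.07 above it. The atrial mean was also 0.94 above on day 12 replicate 3 and differed between the diestrus arrays (6.90 and 7.83). On day 19 replicate 2 the means of 9 macrophage markers, 5 MHC class II genes and 8 interferon response genes were 1.43, 2.43 and 2.19 above the diestrus mean, while fibroblast and mural markers were lower by 0.62 and 0.44 (deviations of -0.62 and -0.44). Cardiomyocyte markers, 8 of 8 measured, averaged 12.02 to 12.24 on every array and 14 of 15 endothelial markers averaged 8.0 to 8.22. That mean hides single markers that moved, such as Vwf, at 7.91 and 9.39 on the diestrus arrays. The mean of 3 endocardial markers ran from 7.23 on day 12 replicate 2 to 8.4 on diestrus replicate 3. What part these differences between arrays had in the results was not tested, and values are given below with and without each day 19 array.

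**Figure D1:**
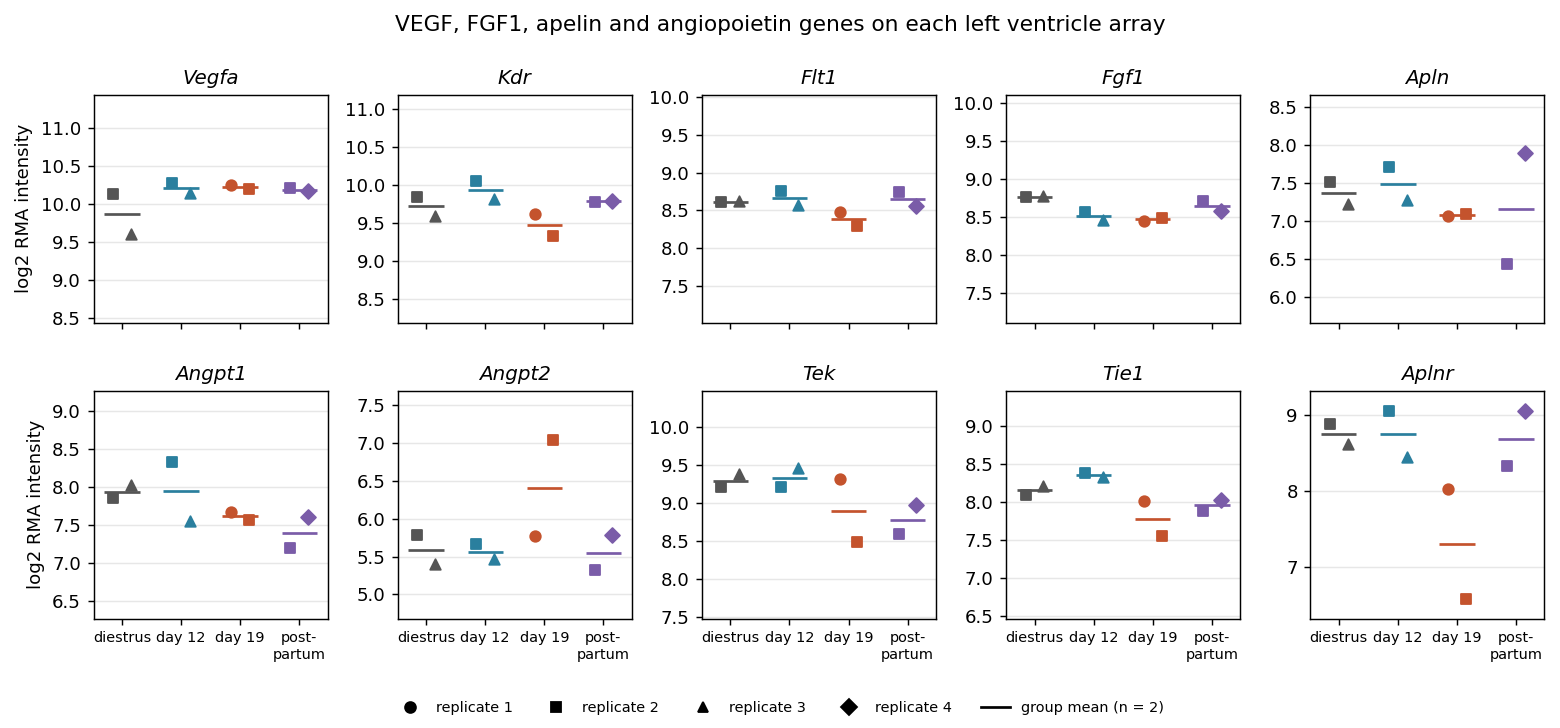
Log2 RMA intensity (y axis) of the 10 genes on each of the 8 arrays, by reproductive state (x axis). Symbols are single arrays, lines are means of 2 arrays, and each panel spans 3 log2 units. Aplnr has its lowest values, 8.03 and 6.58, on the day 19 arrays, and Angpt2 its highest, 7.04, on day 19 replicate 2.

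The broad picture was one of mostly small differences, and none passed the test. The largest from diestrus were -1.44 log2 units for Aplnr and 0.82 for Angpt2, both at day 19. In whole tissue, fewer cells of a type and less RNA per cell cannot be told apart. In limma, with Benjamini-Hochberg adjustment over 13872 genes and a threshold of 0.05, 0 of the 10 genes and 0.0% of all genes were called in each of 6 comparisons. Of these, 4 were planned, which were day 12, day 19 and post-partum against diestrus and post-partum against day 19, and day 19 and post-partum against day 12 were added later. At an unadjusted p under 0.05 the comparison of day 12 with diestrus held 0 of the 10 genes and 2.31% of all genes. Against diestrus, day 19 held 2 of the 10 (Aplnr and Fgf1) and 7.29% of all genes, and post-partum held 0 and 6.62%. Post-partum against day 19 held 1 (Aplnr) and 8.25%. Against day 12, day 19 held 3 (Kdr, Tie1 and Aplnr) and 6.47%, and post-partum held 0 and 8.12%. Differences over arrays are log2 intensities throughout, with n = 2 per group, and an exact permutation test of 2 against 2 arrays could not give a two-sided p below 0.33.

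Vegfa, the main growth factor for endothelium, read 10.13 and 9.60 in diestrus, 10.27 and 10.14 at day 12, 10.24 and 10.19 at day 19, and 10.20 and 10.17 post-partum. All 6 arrays from pregnant and post-partum mice were above both diestrus arrays, though only narrowly above diestrus replicate 2, and the low value was diestrus replicate 3. The log2 difference was 0.34 ± 0.18 (SE, n = 2 per group) at day 12, 0.35 ± 0.18 at day 19 and 0.32 ± 0.18 post-partum (limma, adjusted p = 1.0, 0.658 and 0.738), or 1.27-, 1.28- and 1.25-fold. Without diestrus replicate 3 the differences were 0.072, 0.084 and 0.053. On the scale of a difference from the mean of the endothelial markers on the same array, diestrus replicate 2 was at 0.38 and the 6 later arrays lay between 0.24 and 0.39, so the groups then overlapped in each state. Post-partum and day 19 differed by -0.032 (95% interval -0.46 to 0.40).

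Fgf1, an acidic fibroblast growth factor, read 8.76 and 8.77 in diestrus, 8.56 and 8.46 at day 12, 8.45 and 8.49 at day 19, and 8.71 and 8.58 post-partum. Diestrus was above all 6 other arrays, day 12 and day 19 overlapped, and post-partum lay between them and diestrus. The log2 difference from diestrus was -0.26 ± 0.12 at day 12 (unadjusted p = 0.0749, adjusted p = 1.0, limma), -0.30 ± 0.12 at day 19 (unadjusted p = 0.0449, adjusted p = 0.657) and -0.12 ± 0.12 post-partum (adjusted p = 0.819). With each array left out in turn the day 19 difference stayed between -0.32 and -0.28. The 95% interval at day 19, -0.59 to -0.01, came close to 0.

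Kdr, the main signalling receptor for VEGF-A, read 9.85 and 9.60 in diestrus, 10.06 and 9.82 at day 12, 9.63 and 9.33 at day 19, and 9.78 and 9.80 post-partum. By group mean its order from high to low was day 12, post-partum, diestrus and day 19. Day 12 lay just above post-partum, diestrus overlapped with each of the other states, and both post-partum arrays were above day 19. Kdr differed from diestrus by 0.22 ± 0.17 at day 12, -0.24 ± 0.17 at day 19 and 0.064 ± 0.17 post-partum, and by 0.31 ± 0.17 between post-partum and day 19 (limma, adjusted p = 0.598). Flt1, the high-affinity VEGF receptor, read 8.61 and 8.62 in diestrus, 8.75 and 8.57 at day 12, 8.48 and 8.30 at day 19, and 8.74 and 8.56 post-partum. Both day 19 arrays lay below diestrus, while day 12 and post-partum each had 1 array above and 1 just below it (8.57 and 8.56). The difference of Flt1 was -0.23 ± 0.14 at day 19 (limma, adjusted p = 0.675), 0.047 ± 0.14 at day 12 and 0.035 ± 0.14 post-partum, with a 95% interval of -0.29 to 0.37 for the last.

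The difference of Vegfa from its own diestrus mean exceeded that of its receptors on both day 19 arrays. Vegfa minus Kdr was 0.47 and 0.72 there, and Vegfa minus Flt1 was 0.52 and 0.64, against a spread of -0.15 to 0.15 and -0.28 to 0.28 over the diestrus arrays. At day 12 the same quantities were 0.066 and 0.18 for Kdr and 0.27 and 0.32 for Flt1. Post-partum they were 0.28 and 0.23, and 0.20 and 0.37. These quantities combine values already given and were not tested.

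Angpt1, the vessel-stabilising ligand that mural and other non-endothelial cells make, read 7.85 and 8.02 in diestrus, 8.33 and 7.55 at day 12, 7.67 and 7.56 at day 19, and 7.19 and 7.60 post-partum. Day 12 spanned both sides of diestrus, and the later 4 arrays were all below it. The log2 difference from diestrus was 0.0091 ± 0.26 at day 12, -0.32 ± 0.26 at day 19 (limma, adjusted p = 0.733) and -0.54 ± 0.26 post-partum (unadjusted p = 0.0719, adjusted p = 0.722), the last 1.45-fold lower. The second probe set of Angpt1 did not follow the first: it read 5.34 and 5.26, 6.01 and 4.63, 5.17 and 6.43, and 5.44 and 5.19 in the same order. With the mean of its probe sets the day 19 difference was 0.091. Mural markers, all 10 measured, stood at -0.15 and -0.44 from their diestrus mean on the day 19 arrays and at -0.21 and -0.069 post-partum, and their part in these values was not tested.

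Angpt2, the context-dependent antagonist of TIE2, was the gene with the highest single-array excursion upwards. Its values were 5.78 and 5.40 in diestrus, 5.66 and 5.47 at day 12, 5.77 and 7.04 at day 19, and 5.32 and 5.78 post-partum. One array, day 19 replicate 2, was high, and the other 7 ranged from 5.32 to 5.78. The difference at day 19 was 0.82 ± 0.38 (95% interval -0.07 to 1.70; unadjusted p = 0.0656, adjusted p = 0.657, limma), 1.76-fold, with the groups overlapping. It was 0.18 without day 19 replicate 2 and 1.45 without day 19 replicate 1, each from a lone day 19 array with no spread of its own. On day 19 replicate 2 itself, 2.29% of the genes tested were further above their diestrus mean, and on replicate 1 the share was 17.8%. Day 12 and post-partum gave -0.025 ± 0.38 and -0.037 ± 0.38.

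Tek, which encodes TIE2, read 9.21 and 9.37 in diestrus, 9.20 and 9.46 at day 12, 9.31 and 8.48 at day 19, and 8.58 and 8.97 post-partum. Both post-partum arrays and 1 of the day 19 arrays were below diestrus, and day 12 replicate 2 was just below it (9.20 against 9.21). The post-partum difference was -0.52 ± 0.27 (unadjusted p = 0.094, adjusted p = 0.722, limma), 1.43-fold lower, with 3.03% of all genes tested further below. The day 19 difference was -0.40 ± 0.27 (adjusted p = 0.694), and it was 0.016 without day 19 replicate 2 and -0.81 without day 19 replicate 1. Day 12 differed by 0.041, with a 95% interval of -0.59 to 0.67.

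Tie1, the orphan partner of TIE2, was measured at 8.10 and 8.21 in diestrus, 8.38 and 8.33 at day 12, 8.02 and 7.55 at day 19, and 7.89 and 8.03 post-partum. Day 12 was above diestrus and the 4 later arrays were below it, with no overlap in any of these 3 comparisons. Its differences were 0.20 ± 0.17, -0.37 ± 0.17 and -0.20 ± 0.17 (limma, adjusted p = 1.0, 0.657 and 0.795). Without day 19 replicate 1 the day 19 difference was -0.60, and without replicate 2 it was -0.13, each from a lone day 19 array. Relative to the endothelial markers of the same array, Tie1 remained below diestrus on all 4 later arrays, at -0.14, -0.53, -0.29 and -0.19 against 0.06 and -0.06.

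Angpt2 minus Angpt1, each taken from its diestrus mean, was 0.44 and 1.82 on the day 19 arrays and 0.48 and 0.53 post-partum. In diestrus the quantity was 0.27 and -0.27, and at day 12 it was -0.33 and 0.26. The 4 later arrays were thus all above the other 4, and day 19 replicate 2 stood far from the rest. This holds for the Angpt1 probe set of the highest mean only. The second Angpt1 probe set was itself high on day 19 replicate 2 (6.43, against 5.34 and 5.26 in diestrus). Angpt2 minus Tek was 0.27 and -0.27 in diestrus, 0.16 and -0.29 at day 12, 0.17 and 2.26 at day 19, and 0.45 and 0.52 post-partum, so that day 19 replicate 1 lay within the diestrus spread.

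Apln, the ligand, read 7.52 and 7.23 in diestrus, 7.71 and 7.28 at day 12, 7.07 and 7.10 at day 19, and 6.43 and 7.90 post-partum. Both day 19 arrays were just below diestrus, and the post-partum pair held both the lowest and the highest value of the 8. The day 19 difference was -0.29 ± 0.41 (limma, adjusted p = 0.839) and the post-partum one -0.21 ± 0.41 (adjusted p = 0.916), which was 0.53 without post-partum replicate 2 and -0.94 without post-partum replicate 4. Such a spread leaves a 95% interval of -1.17 to 0.76 for the post-partum difference.

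Aplnr, the G protein-coupled apelin receptor, had the widest range of group means of the 10 genes, 1.44 log2 units. It read 8.88 and 8.61 in diestrus, 9.05 and 8.44 at day 12, 8.03 and 6.58 at day 19, and 8.32 and 9.05 post-partum. Both day 19 arrays were below all 6 others, and the remaining 3 groups overlapped. The log2 difference from diestrus at day 19 was -1.44 ± 0.46 (95% interval -2.52 to -0.37; unadjusted p = 0.0149, adjusted p = 0.657, limma), 2.72-fold lower. Of the 13872 genes tested, 3 had a lower difference. On day 19 replicate 1 alone Aplnr was 0.72 below the diestrus mean (deviation -0.72), with 61 genes (0.44%) lower, and on replicate 2 it was at -2.17, with 3 genes lower.

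The call for Aplnr depended on which day 19 array was kept. Without replicate 1 limma gave -2.17 (adjusted p = 0.0099), and 3 of the 10 genes (Angpt2, Tie1 and Aplnr) and 8.89% of all genes then passed. Without replicate 2 the difference was -0.72, and 0 of the 10 genes and 0.0144% of all genes passed. Post-partum minus day 19 was 1.38 ± 0.46 (adjusted p = 0.589), 2.60-fold. Without day 19 replicate 1 it was 2.10 (adjusted p = 0.0136), in a fit that called 2 of the 10 genes (Angpt2 and Aplnr) and 6.29% of all genes. The post-partum difference from diestrus was -0.065 ± 0.46 (95% interval -1.14 to 1.01). At day 12 Aplnr differed by -0.001 (95% interval -1.08 to 1.07). Relative to the endothelial markers the 2 day 19 arrays lay at -0.72 and -2.10. Atrial markers on replicate 1 and macrophage, MHC class II, interferon, fibroblast and mural markers on replicate 2 moved beside it, and their part was not tested.

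**Figure D2:**
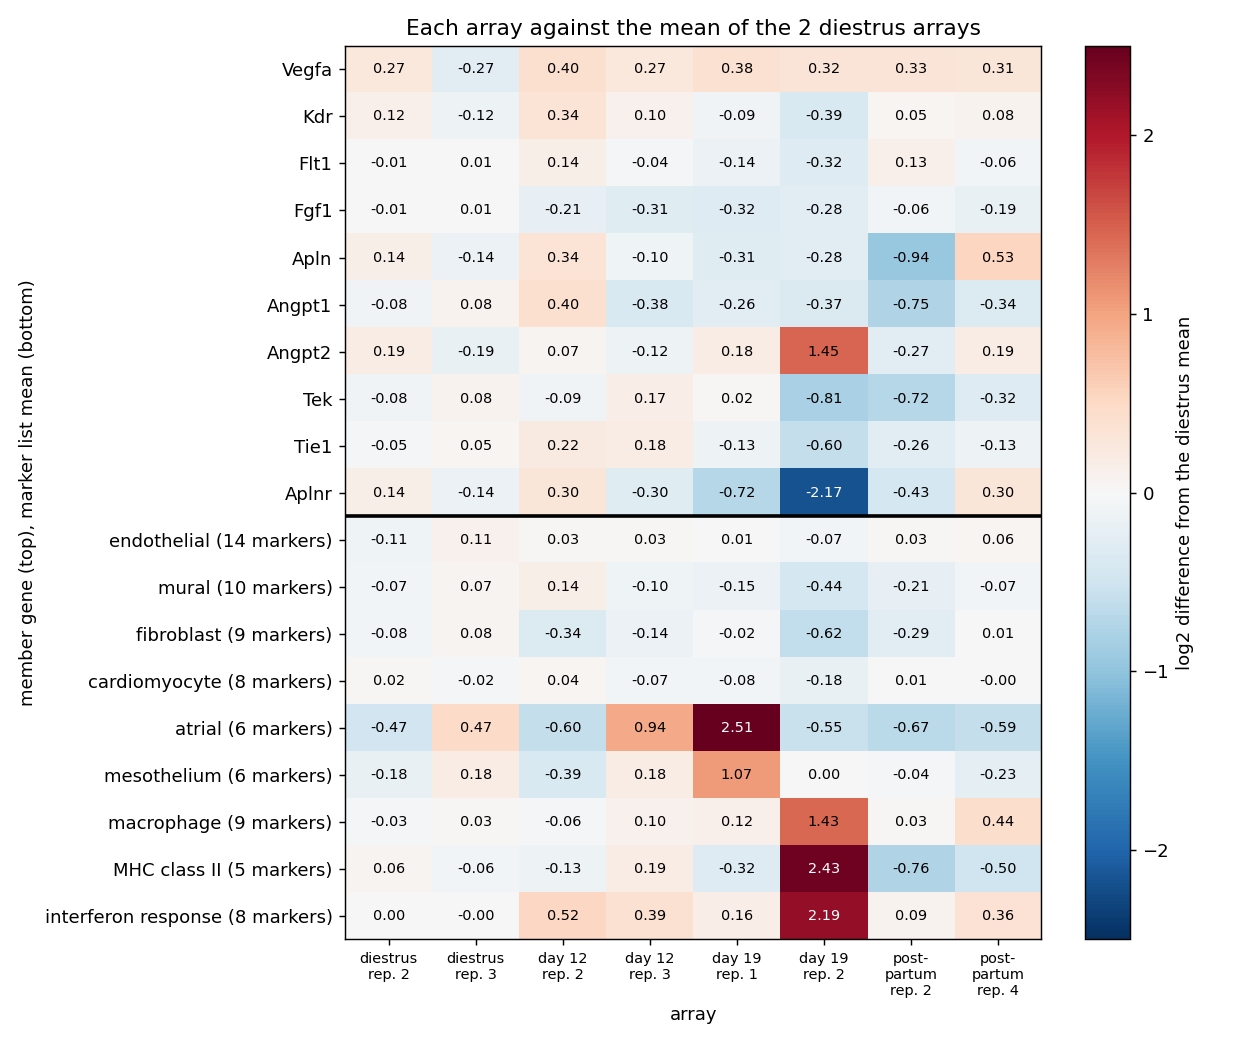
Difference of each array (columns) from the mean of the diestrus pair, in log2 units, for the 10 genes (upper rows) and for the means of 9 marker lists (lower rows); red is above and blue below, and each entry prints its value. The Aplnr entries at day 19 are -0.72 and -2.17, and the endothelial marker entries are 0.01 and -0.07. Each endothelial entry is a mean, with single markers from -0.82 to 0.84 on replicate 2. The atrial entry of replicate 1 and the MHC class II and interferon entries of replicate 2 are the reddest.

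The mean of the 14 endothelial markers differed from diestrus by 0.0051 and -0.067 on the day 19 arrays and by 0.027 and 0.058 on the post-partum arrays. Single endothelial markers moved further. On day 19 replicate 2, 7 of the 14 were below the diestrus mean, from -0.82 for Erg, an endothelial ETS factor, to 0.84 for Ly6c1.

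Read as a group, the 10 genes had a median log2 difference of 0.04 at day 12 (7 positive, 3 negative), -0.30 at day 19 (2 and 8) and -0.09 post-partum (3 and 7), beside medians of 0.017, -0.029 and -0.0037 over all genes tested. Day 12 was above diestrus without overlap for 2 genes (Vegfa and Tie1; 21.7% of all genes) and below for 1 (Fgf1; 15.6%). Day 19 was above for 1 (Vegfa; 16.4%) and below for 6 (Flt1, Angpt1, Tie1, Apln, Aplnr and Fgf1; 20.4%). Post-partum was above for 1 (Vegfa; 21.1%) and below for 4 (Angpt1, Tek, Tie1 and Fgf1; 21.7%). Post-partum was above day 19 for 4 (Kdr, Flt1, Aplnr and Fgf1; 19.0%) and below for 0 (14.3%). Counts of 0 to 2 of 10 lay near these shares of all genes. The 6 of 10 below diestrus at day 19 and the counts of 4 of 10 lay above them, with no test of that difference.

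Taken 1 at a time, each day 19 array had at least 6 of the 10 genes below both diestrus arrays. The shares of all genes were then also larger than the 20.4% found with both day 19 arrays. With replicate 1 left out 8 of the 10 were below both diestrus arrays (50.4% of all genes) and 2 above (32.2%). With replicate 2 left out 6 were below (29.8%), the same 6 genes, and 1 above (36.5%). Array by array, 7 of the 10 were below their diestrus mean on day 19 replicate 1 (45.5% of all genes), with a median of -0.14 against 0.019 over all genes. On replicate 2, 8 were below (59.3%), with medians of -0.34 and -0.077. Post-partum replicate 2 had 7 below and a median of -0.27, while replicate 4 had 5 and 0.0089, beside 50.4% and 49.7% of all genes below and medians of -0.0023 and 0.0015.

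Against day 12, a pair of comparisons chosen after the values were seen, 5 of the 10 genes were lower at day 19 without overlap (Kdr, Flt1, Tie1, Apln and Aplnr; 23.2% of all genes) and 1 was higher (Angpt2; 16.3%). The log2 differences were -0.46 ± 0.17 for Kdr (unadjusted p = 0.0248), -0.57 ± 0.17 for Tie1 (unadjusted p = 0.0119) and -1.44 ± 0.46 for Aplnr (unadjusted p = 0.015), each with an adjusted p of 0.675 in limma. Without day 19 replicate 1, which leaves a lone day 19 array, Kdr, Tie1 and Aplnr were at -0.61, -0.80 and -2.17. Without day 19 replicate 2, Kdr, Tie1 and Aplnr were at -0.31, -0.33 and -0.72. Post-partum was below day 12 for 3 genes (Kdr, Tek and Tie1; 26%) and above for 1 (Fgf1; 20.5%).

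**Figure D3:**
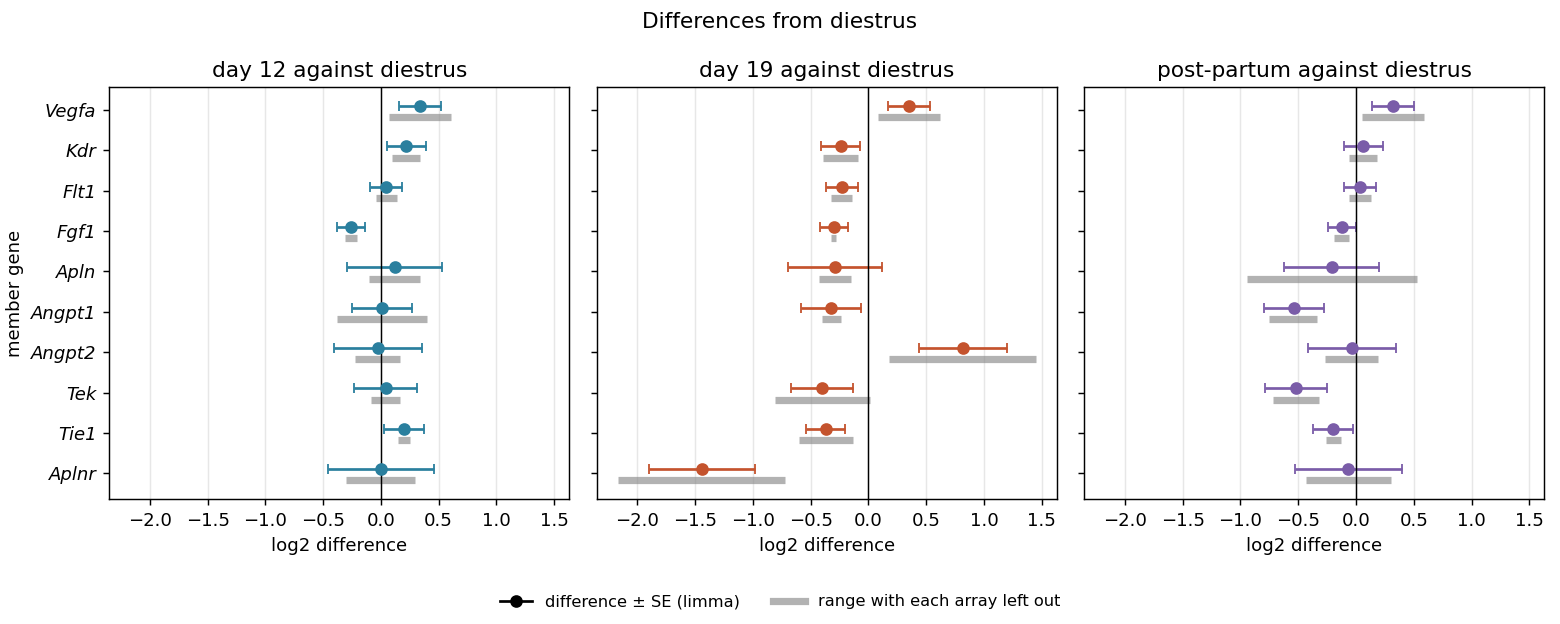
Log2 difference from diestrus (x axis) of each of the 10 genes (y axis) at day 12, day 19 and post-partum. Points with bars are the difference and its SE from limma (n = 2 per group), and grey bars give the range when each array is left out in turn. At day 19 the Aplnr bar runs from -2.17 to -0.72 and that of Fgf1 from -0.32 to -0.28.

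Of the wider pathway lists, 0 genes passed the adjusted test in any comparison. Several lists include some of the 10 genes, so their counts and medians partly repeat values given above. These were Vegfa, Kdr and Flt1 in the VEGF family and Angpt1, Angpt2, Tek and Tie1 in the angiopoietin and Tie list. Fgf1 was among the FGF genes, and Apln and Angpt2 were among the tip cell genes. The VEGF family (10 of 10 tested) had 7 higher and 3 lower at day 12 (median 0.10), 2 and 8 at day 19 (median -0.10) and 7 and 3 post-partum (median 0.073). Vegfb, a ligand of FLT1, read 11.14 and 11.16 in diestrus and 11.08 and 10.76 at day 19 (-0.23 ± 0.15). Nrp2, a VEGF and semaphorin co-receptor, read 8.27 and 8.18 in diestrus and 8.67 and 8.62 post-partum (0.42 ± 0.19, adjusted p = 0.722). The angiopoietin and Tie list (6 of 6 tested) had 4 higher and 2 lower at day 12 (median 0.014), 2 and 4 at day 19 (median -0.34) and 1 and 5 post-partum (median -0.22). Angpt4, counted as higher at day 19 (4.93 and 5.53) and post-partum (5.16 and 5.13), passed the expression filter only through its day 19 mean. Its place among the higher genes at day 19 was thus favoured by the filter. Ptprb, the endothelial phosphatase that restrains TIE2, read 9.73 and 9.91 in diestrus against 9.66 and 8.41 at day 19 (-0.78 ± 0.35, adjusted p = 0.657, limma), so that 1 array again carried most of the difference. Apela, the second APLNR ligand, was below the expression filter, so the apelin list was Apln and Aplnr alone.

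Of the FGF ligands, binding proteins and receptors, 8 of 10 were tested, and 2 were higher and 6 lower than diestrus in each of the 3 states, with medians of -0.13 at day 12, -0.21 at day 19 and -0.13 post-partum. Fgfr4, counted as higher post-partum (5.21 and 5.35), passed the expression filter only through its post-partum mean. Fgf16, a cardiomyocyte ligand, read 8.16 and 8.14 in diestrus and 7.34 and 7.77 at day 19 (-0.60 ± 0.24, unadjusted p = 0.0367, adjusted p = 0.657, limma). Fgfr1, an FGF receptor, read 8.05 and 8.36 in diestrus and 8.0 and 7.49 at day 19 (-0.46 ± 0.19, adjusted p = 0.657). Fgf2, basic fibroblast growth factor, read 7.12 and 7.32 in diestrus and 6.26 and 7.01 post-partum (-0.59 ± 0.25, adjusted p = 0.722).

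Notch and BMP genes of vessel sprouting (13 of 13 tested) had 7 higher and 6 lower at day 12, 3 and 10 at day 19 (median -0.18) and 5 and 8 post-partum (median -0.11). Post-partum, Notch4, an endothelial Notch receptor, read 7.53 and 7.48 against 7.16 and 6.91 in diestrus (0.47 ± 0.14, unadjusted p = 0.0114, adjusted p = 0.722, limma). Hey2, a Notch target, read 6.97 and 7.26 against 7.77 and 7.80 (-0.67 ± 0.20, unadjusted p = 0.0106, adjusted p = 0.722). The 7 tested tip cell genes, of 8, had 3 higher and 4 lower at day 12, 2 and 5 at day 19 and 4 and 3 post-partum. Among them Unc5b, a netrin receptor, read 7.29 and 7.13 in diestrus, 6.94 and 6.57 at day 19 (-0.46 ± 0.16) and 7.26 and 7.22 post-partum.

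Hypoxia response genes (12 of 13 tested) had 6 higher and 6 lower at day 12, 5 and 7 at day 19 and 6 and 6 post-partum, with medians of -0.0088, -0.012 and 0.04. Car9, counted as higher post-partum (5.47 and 4.99), passed the expression filter only through its post-partum mean. Bnip3, a mitophagy receptor induced by hypoxia, had the smallest unadjusted p of the list. It read 8.61 and 8.49 in diestrus, 9.06 and 9.02 at day 12, 9.07 and 9.10 at day 19, and 8.71 and 8.64 post-partum. All 4 pregnant arrays were above the others. The differences were 0.49 ± 0.12 at day 12 (unadjusted p = 0.0044, adjusted p = 1.0, limma) and 0.54 ± 0.12 at day 19 (unadjusted p = 0.00267, adjusted p = 0.657). Epas1, which encodes the endothelial hypoxia factor HIF-2 alpha, read 9.91 and 9.62 at day 19 and 10.65 and 10.12 post-partum (0.62 ± 0.20, adjusted p = 0.589).

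**Figure D4:**
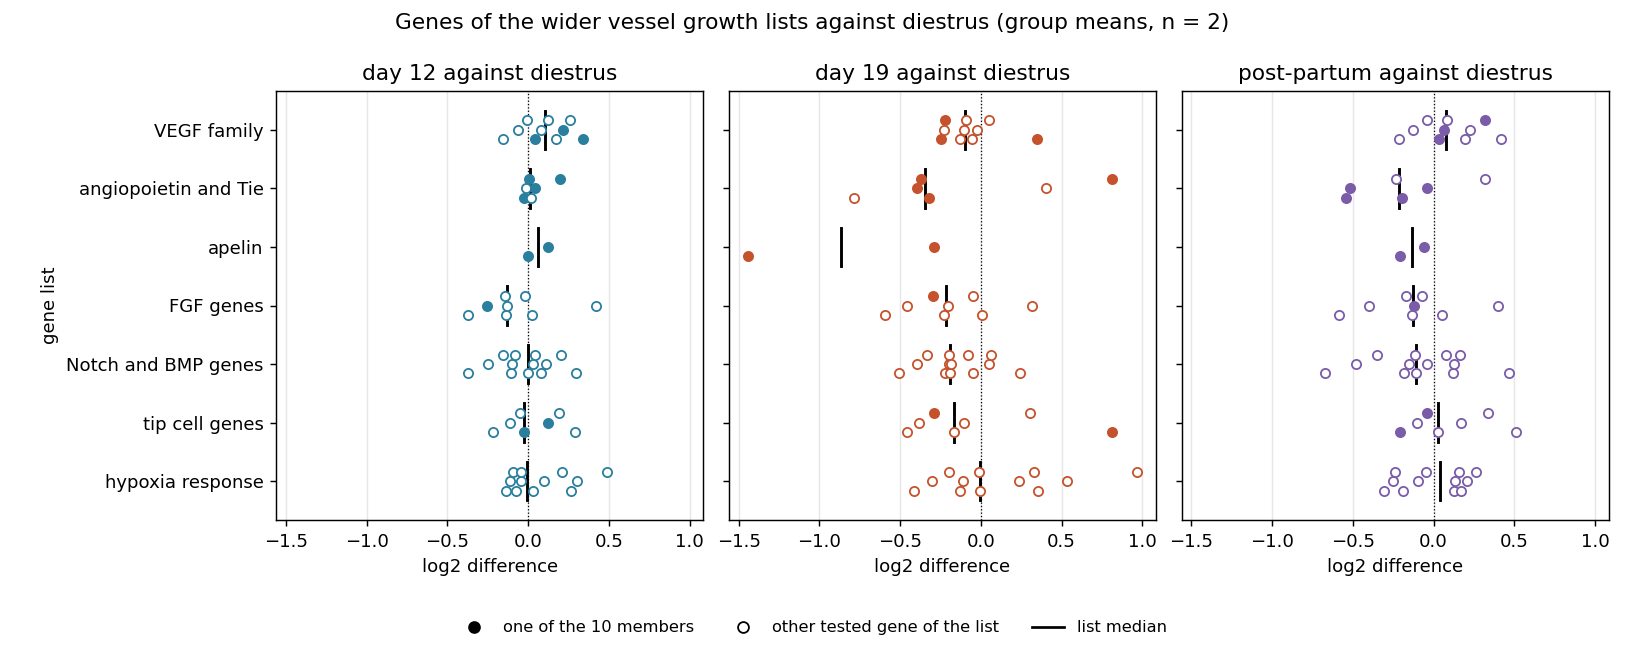
Log2 difference from diestrus (x axis) of the tested genes of 7 lists (y axis) at day 12, day 19 and post-partum; each circle is 1 gene, filled for the 10 genes described, and the black line is the list median. At day 19 the angiopoietin and Tie median is -0.34 and the hypoxia median -0.012.

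By root mean square difference over the 8 arrays, with each gene centred on its own mean, 12674 genes were ranked for likeness to the 3 genes with the widest range of group means. Nearest to Aplnr, whose own deviation was 0.76, were Abca6 (0.30), Col15a1 (0.30) and Sox4 (0.31). Like Aplnr, each had its lowest value on day 19 replicate 2 (5.91, 6.19 and 5.17). Nearest to Angpt2 (0.51) were Dock2 (0.12), Myd88 (0.13) and Pik3r5 (0.13), whose highest values were likewise on day 19 replicate 2 (7.75, 9.13 and 7.18). Nearest to Tie1 (0.25) were Tbc1d15 (0.06), Dock9 (0.06) and Dip2c (0.07), also lowest on that array (7.63, 7.51 and 8.01). That 1 array thus weighed on each likeness.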

How the data were processed

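Left ventricle RNA of 8 samples was measured on 1-colour Affymetrix arrays. The values deposited by the authors are log2 RMA intensities. The submitters' processing notes name Affymetrix Expression Console, and its version is not given in the sources used here. The RMA method corrects background, equalises arrays and summarises probe sets. Equalising removes shifts shared by most genes, and intensities of different probe sets were not set against each other.

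Of 34365 probe sets, 23521 had 1 gene symbol in the platform annotation, 1814 had several and 9030 were unnamed here. Entrez identifiers of 23328 matched RefSeq (GRCm38.p6). The probe set with the highest mean stood for its gene. Genes with a group mean of 5.19 or more in any group, the median value of the table, were tested. The 8 arrays entered 1 linear model of 4 group means in limma 3.58.1 (R 4.3.3; 4 residual and 3.68 prior degrees of freedom), was first tested on simulated data, and gave two-sided p-values. The number of arrays limits the precision, with a median SE of 0.17. Tables were handled in Python 3.11.15.

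The 10 genes, the pathway lists and the marker lists were chosen with earlier results of these data known, so their counts are descriptions. All 10 genes were named by rule, and up to 4 others per list and comparison, those with the smallest unadjusted p, could be. Alternatives covered array weights, the prior, filters, probe sets, scaling, endothelial markers as reference, the replicate block and each array left out.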

Additional observations from a re-analysis of the deposited data

Results flagged for a closer look

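Tie1 lay above both diestrus arrays at day 12 (8.38 and 8.33 against 8.10 and 8.21) and below both at day 19 (8.02 and 7.55) and post-partum (7.89 and 8.03), which is why it is listed here. The log2 difference between day 19 and day 12 was -0.57 ± 0.17 (SE, n = 2 per group; unadjusted p = 0.0119, adjusted p = 0.675, limma), and that between post-partum and day 12 was -0.40 ± 0.17 (unadjusted p = 0.0526, adjusted p = 0.621). Neither passed the threshold of 0.05 after adjustment.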

How the results depend on the processing

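With 2 arrays per group, 1 array often set the size or the sign of a difference, and the causes of the changes below were not tested. Array weights, the trended and robust prior, fitting only the compared groups and no filter changed no member's direction or call in the 4 planned comparisons. The stricter filter left Angpt2 untested and changed none of the other 36 member results.

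Genes called at day 12 were 1 with array weights and 1 relative to endothelial markers, and post-partum against day 19 gave 1 with the trended and robust prior and 1 with the stricter filter. Angpt1 at day 12 was -0.0085 with arrays centred on their median and -0.024 relative to endothelial markers, and at day 19 it was 0.091 with the mean of its probe sets. Flt1 post-partum was -0.0074 relative to endothelial markers. On that scale the members above diestrus without overlap were 1 at day 12 (10% of all genes on the same scale), 0 at day 19 (15.7%) and 0 post-partum (12.2%). Lower post-partum than at day 19 were 3 (23.5%), and 1 with the mean of probe sets (14.0%).

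The replicate numbers were also fitted as a block, although the labels do not say that a number pairs samples. Only diestrus and day 12 share 2 numbers, 2 and 3, with a correlation of deviations of 0.22. Day 19 replicate 1 and post-partum replicate 4 have numbers of their own and drop out of this fit. Day 19 and post-partum are then each a lone array, replicate 2, with no spread of its own. The spread in this fit came from the diestrus and day 12 arrays only. Apln, for example, read 6.43 on post-partum replicate 2 and 7.90 on replicate 4, which dropped out. The calls below that involve day 19 or post-partum thus describe single arrays and cannot show a difference between states. With the replicate block 18 genes were called at day 12, 2465 at day 19, 599 post-partum and 2442 post-partum against day 19. Of the 10 genes, 4 were called at day 19 (Angpt2 1.31, Tek -0.70, Tie1 -0.59 and Aplnr -2.39), 1 post-partum (Apln -1.12, while Kdr was -0.07), and 3 post-partum against day 19 (Angpt2 -1.72, Apln -0.66 and Aplnr 1.74), where Vegfa was 0.0093 and Tek 0.092. Against day 12 this fit called 2635 genes and 6 members at day 19 (among them Kdr -0.73, Tie1 -0.79 and Aplnr -2.39) and 799 genes and 1 member post-partum.

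With each array left out in turn, genes called ranged from 0 to 1 at day 12, 0 to 1233 at day 19, 0 to 3 post-partum and 0 to 872 post-partum against day 19. The upper limits of 1233 and 872 came without day 19 replicate 1, where the members called were 3 and 2, against 0 for every other array left out. Each of these fits left 1 group with a lone array, with no spread of its own. Calls in the comparisons of that group rest on the spread of the other groups and cannot show a difference between states. Leaving out an array also raised the share of all genes without overlap. Members above diestrus without overlap ranged from 2 to 7 at day 12 (35.6% to 40.3% of all genes), 1 to 2 at day 19 (27.6% to 36.5%) and 1 to 4 post-partum (33.7% to 38.4%), and those below from 1 to 4 at day 12 (29.1% to 31.6%), 6 to 8 at day 19 (29.8% to 50.4%) and 4 to 7 post-partum (33.7% to 40.5%). Members lower post-partum than at day 19 ranged from 1 to 3 (24.3% to 36.9%). These leave-one-out counts without overlap were chosen after seeing the data, as were the comparisons with day 12. There, genes called ranged from 0 to 1312 at day 19, with 4 members called without day 19 replicate 1 and 0 without any other array, and from 0 to 3 post-partum, with 0 members. Signs turned at day 12 for Angpt1 (-0.38 to 0.40), Angpt2 (-0.22 to 0.17), Apln (-0.10 to 0.34), Aplnr (-0.30 to 0.30), Flt1 (-0.042 to 0.14) and Tek (-0.089 to 0.17), and at day 19 for Tek (-0.81 to 0.016). Post-partum they turned for Angpt2 (-0.27 to 0.19), Apln (-0.94 to 0.53), Aplnr (-0.43 to 0.30), Flt1 (-0.058 to 0.13) and Kdr (-0.058 to 0.18), and against day 19 for Apln (-0.65 to 0.82), Tek (-0.54 to 0.29) and Tie1 (-0.063 to 0.40). At day 19 all members but Tek kept their direction against diestrus in every leave-one-out fit, with Angpt2 running from 0.18 to 1.45. Vegfa, Fgf1 and Tie1 kept theirs against diestrus in each state.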
